A study of Homo sapiens with 12 samples.

Results

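The transcription factors that drive epithelial-mesenchymal transition (EMT) were followed together with the proteins that mark its 2 ends through MAPK inhibition and recovery of a melanoma cell line. The 10 genes were the rows of the deposited count table whose symbols are ZEB1, ZEB2, TWIST1, TWIST2, SNAI1, SNAI2, CDH1, CDH2, VIM and FN1. All 10 were found among the 44659 genes listed. Of these, 8 reached a mean library-scaled count of 10 over the 12 libraries and were tested, among 15916 tested genes in all. CDH1 and TWIST2 did not reach it and are described by their counts.

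The cells were A375, a single established line of human skin melanoma, and RNA was sequenced after depletion of ribosomal RNA. Per the labels it came from the cytoplasmic fraction, whereas the methods of the study speak of total RNA, so which of them was sequenced is uncertain. There were 4 groups of 3 libraries. Control cells (CC) were exposed to DMSO, the solvent, for 72 h. The other groups all had 72 h of MAPKi, which was 500 nM of the BRAF inhibitor vemurafenib combined with 500 nM of the MEK inhibitor cobimetinib: treated cells (TC) were collected at its end, persister cells (PC) after 2 more days without drug and recovered cells (RC) after 9 days without drug. CC was collected only with TC. For PC and RC, the treatment history and the day of harvest, with any passage of the cells in between, cannot be told apart. The labels number the libraries but do not say whether they came from separate cultures, so p-values measure the spread between these libraries, which may be technical.

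In epithelia, E-cadherin (CDH1) holds neighbouring cells together at adherens junctions. The zinc finger factors ZEB1, ZEB2, SNAI1 (Snail) and SNAI2 (Slug) and the basic helix-loop-helix factors TWIST1 and TWIST2 can repress CDH1 by way of E-box sequences, while N-cadherin (CDH2), vimentin (VIM) and fibronectin (FN1) become prominent in mesenchymal cells. Melanocytes come from the neural crest and are no epithelium. In this lineage ZEB2 and SNAI2 are known from differentiated melanocytes, and ZEB1 and TWIST1 from less differentiated, invasive melanoma cells.

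Library totals ran from 37773389 to 55567097 counts, so that 3 counts, the floor used here, stood for 0.0534 to 0.0785 CPM (counts per 1000000 of the normalized library size). Floors cover counting error only. CPM are given per library, and a group is given as mean ± SD of 3 libraries. Fold changes are log2 values with their standard errors (SE) from edgeR's quasi-likelihood test, two-sided, with Benjamini-Hochberg adjustment over the 15916 genes. A gene was called higher or lower at an adjusted p under 0.05. A stricter rule asked for a change beyond 1.5-fold (glmTreat, adjusted p of at most 0.05). DUSP6, SPRY4 and ETV4, 3 output genes of ERK signalling that served as a check of the drug, had log2 fold changes of -5.32, -8.06 and -6.49 in TC against CC. They were also called lower in PC, 2 days after the drugs were removed, at -4.90, -9.10 and -7.07 against CC. The melanocytic genes SOX10, MITF, DCT and PMEL were present, while MLANA and TYR had means of 0.545 and 2.09 CPM in CC. Of the markers of other cell types, KRT5, KRT1 and DSG3 (keratinocytes), COL3A1 (fibroblasts), CD3E (T cells) and PECAM1 (endothelium) had at most 2 counts summed over a group. Others were present and moved with the treatment. In TC against CC, 33.2% of all tested genes were called higher and 34.7% lower. Of 2 tested keratinocyte genes both were called higher in TC than in CC: KRT10 (45.9 to 91.9 CPM) and KRT14, with 2 counts summed over CC, 50 over TC and 291 over PC. KRT14 reached the limit on low counts only through groups where it was higher than in CC. Of 3 tested fibroblast genes LUM (27.8 to 6.75 CPM) and PDGFRA (3.79 to 1.25 CPM) were called lower, and of 4 immune and endothelial genes CD68, a lysosomal protein of macrophages, was called higher (154 to 881 CPM) and PTPRC and VWF lower. The summed CPM of the 6 keratinocyte genes ran from 40.7 to 52.3 in CC and from 88.6 to 94.7 in TC. For the 6 fibroblast genes these ranges were 28.5 to 38.3 and 8.08 to 9.51. For the 6 immune and endothelial genes they were 131 to 180 and 722 to 1067. Most of each sum came from a single gene, which was KRT10, LUM or CD68. The median log2 fold change of the 4 tested immune and endothelial genes in TC against CC was -0.70. The summed CPM of the 8 melanocytic markers moved with the treatment, from 1665 to 1892 in CC to 7094 to 10310 in TC, 3497 to 5106 in PC and 1528 to 1594 in RC. The part of these markers in the results below was not tested. In bulk RNA, fewer cells of a type and less RNA per cell cannot be told apart.

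ZEB1 and ZEB2 are the targets for which the miR-200 family of microRNAs is best known. The mature microRNAs of the family are shown because both genes carry their matches and moved in opposite directions. The sequences are from RefSeq (GRCh38.p14), read 5′ to 3′, with the seed (bases 2 to 8) in capitals. miR-200a and miR-141 share one seed, and the other 3 share another.
hsa-miR-200a-3p (chr1:1167916-1167937, + strand): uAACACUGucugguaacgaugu
hsa-miR-141-3p (chr12:6964155-6964176, + strand): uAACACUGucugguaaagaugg
hsa-miR-200b-3p (chr1:1167160-1167181, + strand): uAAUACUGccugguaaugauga
hsa-miR-200c-3p (chr12:6963742-6963764, + strand): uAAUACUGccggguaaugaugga
hsa-miR-429 (chr1:1169055-1169076, + strand): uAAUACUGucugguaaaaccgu

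Matches to the seeds were counted on the transcript strand in the 3′ untranslated region of each gene's MANE Select transcript (GENCODE v44, hg38). Of the seed AACACUG, whose match in DNA letters is CAGTGTT, ZEB1 held 3 in 2543 bases and ZEB2 held 4 in 5373 bases. At least as many were found in 1.01% and 0.299% of the 19061 untranslated regions searched. Of the seed AAUACUG, whose match is CAGTATT, ZEB1 held 6 and ZEB2 held 5, and at least as many were found in 0.0105% and 0.042%. Among the other 8 genes, FN1 held 2 and SNAI2 held 1 of the second kind, and none held the first. These shares were not adjusted for length. A match of letters is not a shown binding site. Mature microRNAs were not measured. Of the family's own loci, MIR200CHG, MIR200A, MIR200B, MIR200C, MIR141 and MIR429 were listed with 0 counts in all 12 libraries.

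The 250 bases before the MANE start site are shown for ZEB1, ZEB2 and CDH2 (RefSeq promoters, GRCh38.p14), the 3 tested genes with sequence at hand that moved furthest, with the E-box CACCTG, read on either strand, in capitals. ZEB1 lies at chr10:31318495-31529814 (+ strand), ZEB2 at chr2:144364364-144521057 (- strand) and CDH2 at chr18:27932879-28177946 (- strand) in GENCODE v44.
ZEB1, chr10:31318966-31319215 (+ strand): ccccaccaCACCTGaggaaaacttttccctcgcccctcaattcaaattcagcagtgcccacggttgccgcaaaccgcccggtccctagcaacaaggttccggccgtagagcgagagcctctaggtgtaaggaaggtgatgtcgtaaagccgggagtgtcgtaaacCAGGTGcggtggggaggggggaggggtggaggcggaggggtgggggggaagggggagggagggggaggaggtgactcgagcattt
ZEB2, chr2:144520120-144520369 (- strand): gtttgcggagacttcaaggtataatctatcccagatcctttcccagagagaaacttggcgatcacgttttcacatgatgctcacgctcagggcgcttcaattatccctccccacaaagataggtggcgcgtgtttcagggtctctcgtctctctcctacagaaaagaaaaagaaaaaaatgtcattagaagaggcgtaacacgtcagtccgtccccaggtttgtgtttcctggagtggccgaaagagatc
CDH2, chr18:28177131-28177380 (- strand): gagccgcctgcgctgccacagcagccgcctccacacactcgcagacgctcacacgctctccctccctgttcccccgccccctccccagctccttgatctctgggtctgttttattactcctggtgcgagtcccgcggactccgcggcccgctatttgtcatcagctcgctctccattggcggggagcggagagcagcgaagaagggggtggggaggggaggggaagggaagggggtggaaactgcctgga

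The ZEB1 window held CACCTG at 2 places, which begin 242 and 85 bases before the start site. The windows of ZEB2 and CDH2 held 0, as did those of VIM, FN1 and TWIST2. Among 35116 promoter windows of 250 bases, 17.5% held at least 1 and 2.53% at least 2. These windows of ZEB1, ZEB2 and CDH2 held neither the E-boxes CATCTG or CATATG (found in 14.3% of all windows) nor the AP-1 site TGAGTCA (4.2%). ZEB1 and CDH2 have other listed start sites, which are not shown. A ZEB1 window at chr10:31318167-31318416 held 1 CACCTG and 1 of the other E-boxes. A CDH2 window at chr18:28036642-28036891 held 1 of the other E-boxes. The guanine and cytosine content was 62.4% in ZEB1, 48% in ZEB2 and 66% in CDH2.

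During MAPKi the EMT factors did not move as a group: ZEB2 and SNAI2 rose, ZEB1 and TWIST1 fell, and N-cadherin rose while E-cadherin stayed at or near 0. Of the 8 tested genes, 4 were called higher and 3 lower in TC than in CC, where 33.2% of all tested genes were called higher and 34.7% lower. Beyond 1.5-fold, 3 were higher and 2 lower, against 16.1% and 19.3% of all tested genes. In 5 of the 8 the libraries of the 2 groups did not overlap, as in 68% of all tested genes. With so large a share of the transcriptome called, these counts do not set the genes apart. The median log2 fold change of the 8 was 0.27, that of all tested genes -0.02.

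**Figure D1:**
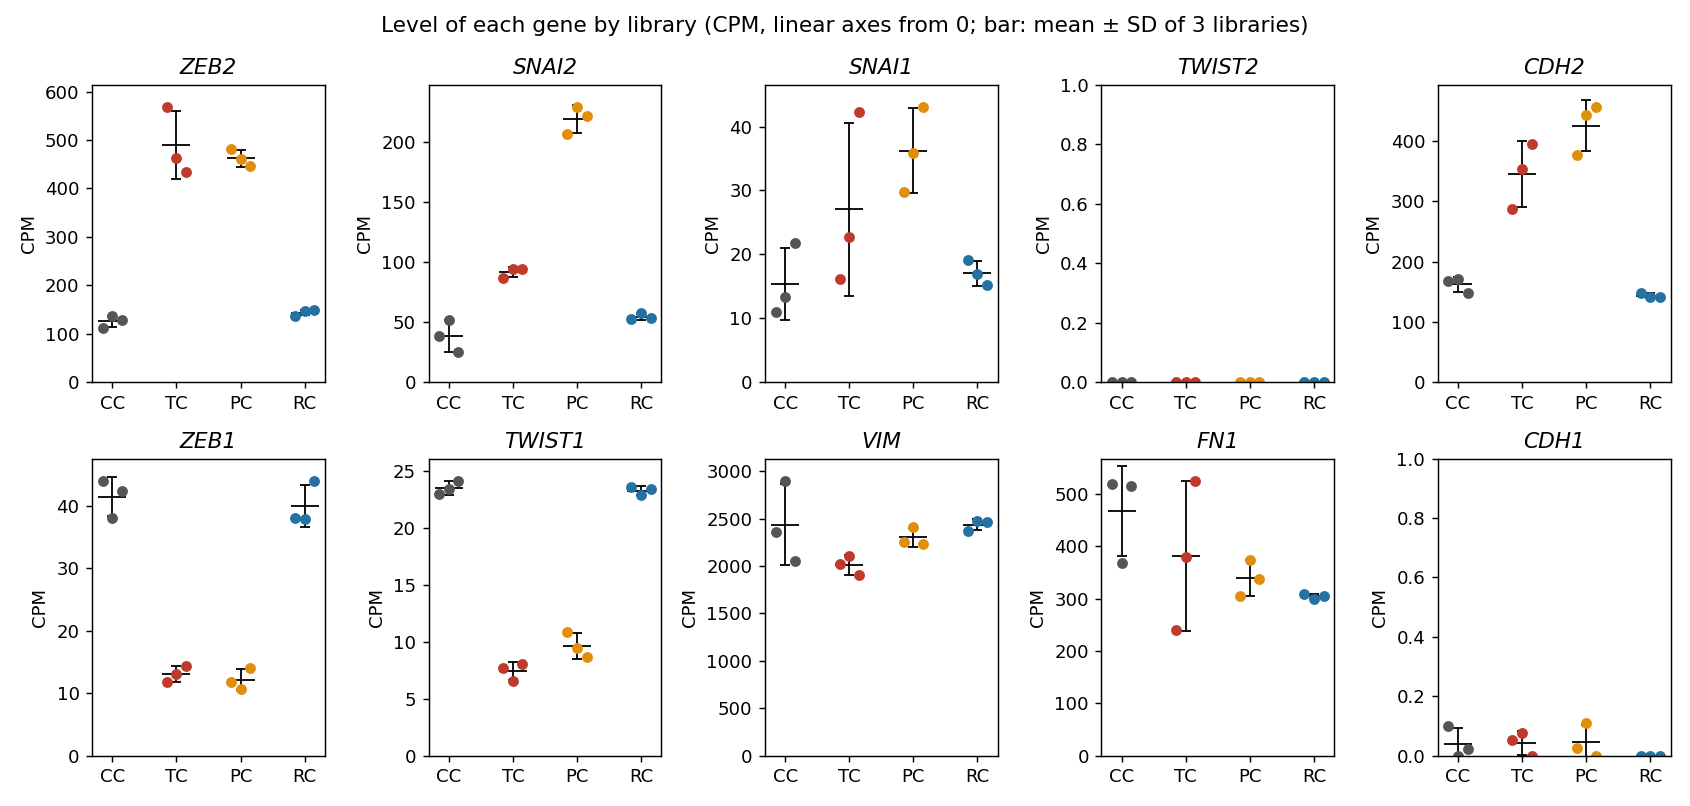
Level of each of the 10 genes in the 12 libraries, in CPM on linear axes that start at 0, by group (3 points per group in the order of their numbers, with mean and SD as black lines). ZEB1 and TWIST1 were low, and ZEB2, SNAI2 and CDH2 high, in TC and PC, while RC lay near CC; TWIST2 was at 0 and CDH1 between 0 and 0.109 CPM.

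ZEB2 had 112, 136 and 128 CPM in the 3 CC libraries and 569, 464 and 435 CPM in TC. Every TC library lay above every CC library. Means were 125 ± 11.8 CPM in CC against 489 ± 70.4 CPM in TC, and the log2 fold change was 1.96 ± 0.10 (adjusted p = 7.07e-09). ZEB1 had 43.97, 37.9 and 42.3 CPM in CC and 11.8, 13.1 and 14.3 CPM in TC. It fell in every TC library below every CC library, with means of 41.4 ± 3.11 and 13.1 ± 1.26 CPM. This gave a log2 fold change of -1.66 ± 0.11 (adjusted p = 7.89e-08). Both changes passed the 1.5-fold rule.

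The exchange of the 2 ZEB genes can be read within each library, where depth and normalization cancel. There were 2.56, 3.57 and 3.03 ZEB2 counts per ZEB1 count in CC and 48.2, 35.3 and 30.4 in TC. In PC the ratio was 40.8, 42.9 and 31.9, and in RC 3.59, 3.85 and 3.37. The ratios of TC and PC overlapped, those of CC and RC overlapped, and the pairs of groups lay apart. The log2 ratio of ZEB1 to ZEB2 averaged -1.60 ± 0.24 in control and -1.85 ± 0.10 in recovered cells, but -5.22 ± 0.34 in TC and -5.26 ± 0.23 in PC. The counts per gene are not corrected for length, so the ratio compares libraries and not the amounts of the 2 mRNAs.

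**Figure D2:**
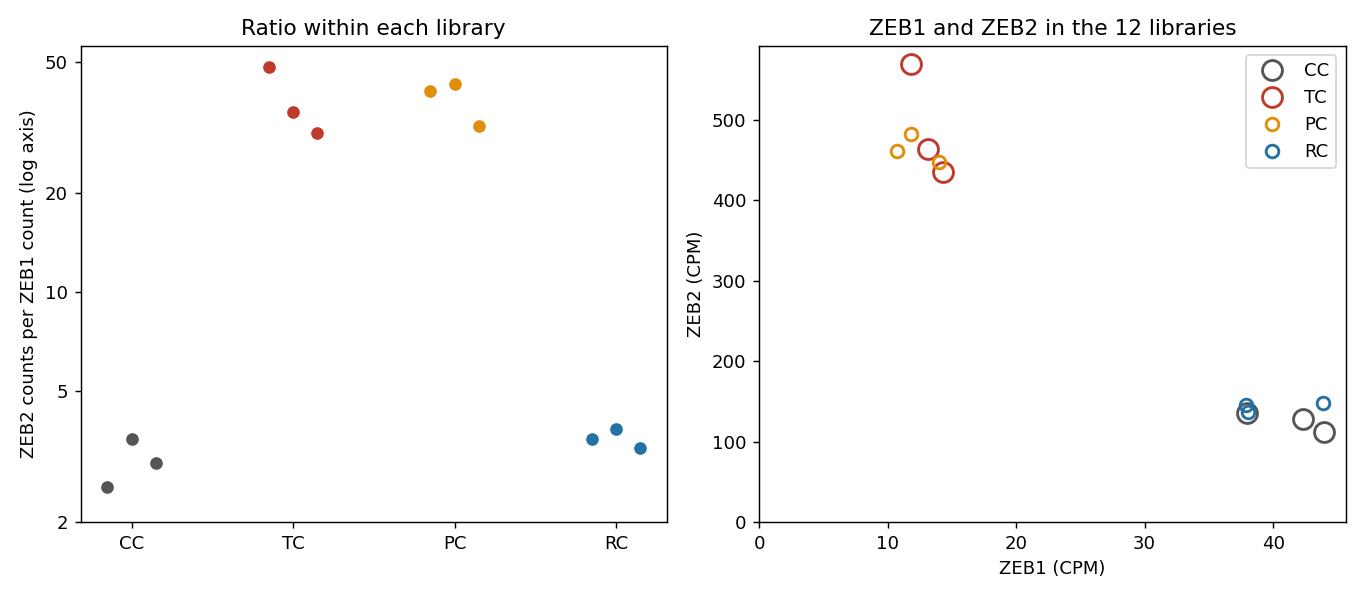
Left, ZEB2 counts per ZEB1 count in each library on a log axis, by group. Right, ZEB2 against ZEB1 in CPM, each open circle a library: the 6 TC and PC libraries lie at low ZEB1 and high ZEB2, and the 6 CC and RC libraries at high ZEB1 and low ZEB2.

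TWIST1, a neural crest factor, moved with ZEB1. It had 23.0, 23.5 and 24.2 CPM in CC and 7.70, 6.54 and 8.04 CPM in TC, with no overlap. The log2 fold change was -1.66 ± 0.10 (adjusted p = 3.11e-08), beyond 1.5-fold. Its close relative TWIST2 had 0 counts in all 12 libraries. In a single library, 0 counts leave room for a level up to the floor, which was 0.0534 to 0.0785 CPM depending on the library.

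SNAI2 moved with ZEB2. Its 38.0, 51.6 and 25.2 CPM in CC stood against 87.1, 93.8 and 94.5 CPM in TC. The 3 CC libraries were spread by more than the 3 TC libraries, and the groups did not overlap. The log2 fold change was 1.26 ± 0.18 (adjusted p = 5.79e-05), beyond 1.5-fold.

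SNAI1 had 10.96, 13.3 and 21.7 CPM in CC and 16.1, 22.8 and 42.2 CPM in TC, and the groups overlapped. Its log2 fold change of 0.82 ± 0.32 was called (adjusted p = 0.0389) but not beyond 1.5-fold (adjusted p = 0.229). The call rested on TC replicate 3, the highest library: without it the log2 fold change was 0.34 (adjusted p = 0.278). It was also lost without CC replicate 1 (0.62, adjusted p = 0.141), without CC replicate 2 (0.72, adjusted p = 0.112), with only the 2 groups in the fit (adjusted p = 0.0874) and with DESeq2 (adjusted p = 0.0636).

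Of the cadherins, CDH2 had 168, 171 and 148 CPM in CC and 288, 353 and 396 CPM in TC. All TC libraries lay above all CC libraries, with a log2 fold change of 1.09 ± 0.11 (adjusted p = 2.68e-06), beyond 1.5-fold. CDH1 was counted 4, 0 and 1 times in the CC libraries and 0 times in all of RC, with 2, 3 and 0 counts in TC and 1, 5 and 0 counts in PC. At 0 to 0.109 CPM it was at or near the floor in every library, and no change of CDH1 was detectable at this depth. CDH2 was counted 5997 to 21220 times in the same libraries.

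The mRNAs of the mesenchymal proteins moved least. VIM had 2356, 2901 and 2052 CPM in CC and 2021, 2112 and 1907 CPM in TC, with overlap. A log2 fold change of -0.28 ± 0.10 was called (adjusted p = 0.0274), not beyond 1.5-fold, and the call rested on CC replicate 2, the highest library, without which it was -0.13 (adjusted p = 0.11). It was lost in 6 of 19 alternatives in all, among them those without TC replicate 1 (adjusted p = 0.0613) or TC replicate 3 (adjusted p = 0.0905). FN1 had 520, 368 and 515 CPM in CC and 239, 380 and 525 CPM in TC, and the groups overlapped. Its log2 fold change of -0.29 ± 0.22 was not called (adjusted p = 0.257, 95% confidence interval from -0.77 to 0.19). Without TC replicate 3, the library that was also highest for SNAI1 and CDH2 and lowest for ZEB2 within TC, FN1 was called lower (-0.59, adjusted p = 0.0172).

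After 2 days without drug the pattern was still in place, and SNAI2 had gone further. In PC against CC, 4 of the 8 genes were called higher and 2 lower, where 33.2% of all tested genes were called higher and 35.9% lower. The same 6 were called beyond 1.5-fold, against 17.2% higher and 19.9% lower among all tested genes. The 1.5-fold call of SNAI1 (adjusted p = 0.0304) was lost in 5 of 19 alternatives, with DESeq2 (adjusted p = 0.265) and without CC replicate 1 (0.111), CC replicate 2 (0.0894), PC replicate 2 (0.0540) or PC replicate 3 (0.0911). The libraries of 6 genes did not overlap, as in 70.1% of all tested genes. The median log2 fold change was 0.58 for the 8 genes and -0.04 for all tested genes. TC, PC and RC were each compared with the same CC libraries, so their differences from CC are not independent of each other.

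SNAI2 had 207, 230 and 222 CPM in PC, above every TC and every CC library. Its log2 fold change was 2.52 ± 0.19 against CC (adjusted p = 1.65e-07) and 1.26 ± 0.18 against TC (adjusted p = 0.000386), the latter also beyond 1.5-fold. SNAI1 had 29.8, 35.8 and 43.1 CPM in PC, above every CC library, a log2 fold change of 1.24 ± 0.32 against CC (adjusted p = 0.00449). Its difference from TC was not called (0.42 ± 0.32, adjusted p = 0.374), although without TC replicate 3 it was (0.90, adjusted p = 0.0348).

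ZEB2 stayed at 482, 461 and 447 CPM in PC and ZEB1 at 11.8, 10.7 and 14.0 CPM. Against CC the log2 fold changes were 1.88 ± 0.10 (adjusted p = 9.74e-09) and -1.77 ± 0.11 (adjusted p = 4.60e-08). Between PC and TC neither gene was called, with intervals of -0.29 to 0.13 for ZEB2 and -0.35 to 0.14 for ZEB1. TWIST1 had 10.9, 9.43 and 8.67 CPM in PC, below CC (-1.28 ± 0.10, adjusted p = 2.55e-07) and above every TC library. The step from TC was small, at 0.38 ± 0.10 (adjusted p = 0.0178), and was lost without TC replicate 2 (adjusted p = 0.0767), without PC replicate 1 (adjusted p = 0.0729) and with only the 2 groups in the fit (adjusted p = 0.0631).

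CDH2 had 377, 443 and 457 CPM in PC, a log2 fold change of 1.39 ± 0.11 against CC (adjusted p = 3.07e-07). Its difference from TC, 0.30 ± 0.11, missed the threshold (adjusted p = 0.0655), the groups overlapped, and 5 of 19 alternatives called it, among them those without CC replicate 3 (adjusted p = 0.0458), TC replicate 3 (adjusted p = 0.0197) or PC replicate 1 (adjusted p = 0.0383). VIM had 2258, 2414 and 2236 CPM in PC and FN1 had 306, 374 and 338 CPM. Neither was called against CC, at -0.08 ± 0.10 (adjusted p = 0.484) for VIM and -0.46 ± 0.22 (adjusted p = 0.0804) for FN1. FN1 was called lower in 4 of 19 alternatives: when CC replicate 2 (adjusted p = 0.0357), TC replicate 1 (adjusted p = 0.0154) or TC replicate 3 (adjusted p = 0.0287) was left out, and when the 2 groups were fitted alone (adjusted p = 0.0227).

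In PC against TC, 2 of the 8 genes were called higher and 0 lower (12.2% and 12.5% of all tested genes). Beyond 1.5-fold it was SNAI2 alone, against 2.33% higher and 1.15% lower of all tested genes. Libraries did not overlap for TWIST1, SNAI2 and VIM, as for 47.1% of all tested genes, and VIM was not called (0.19 ± 0.10, adjusted p = 0.187). At an unadjusted p under 0.05 edgeR gave 3 genes as higher and 0 as lower, but the share of all tested genes under that rule was not computed. DESeq2 called 3 of the 8 genes, with CDH2 as the third. Among all genes it called 4308, where edgeR called 3936.

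**Figure D3:**
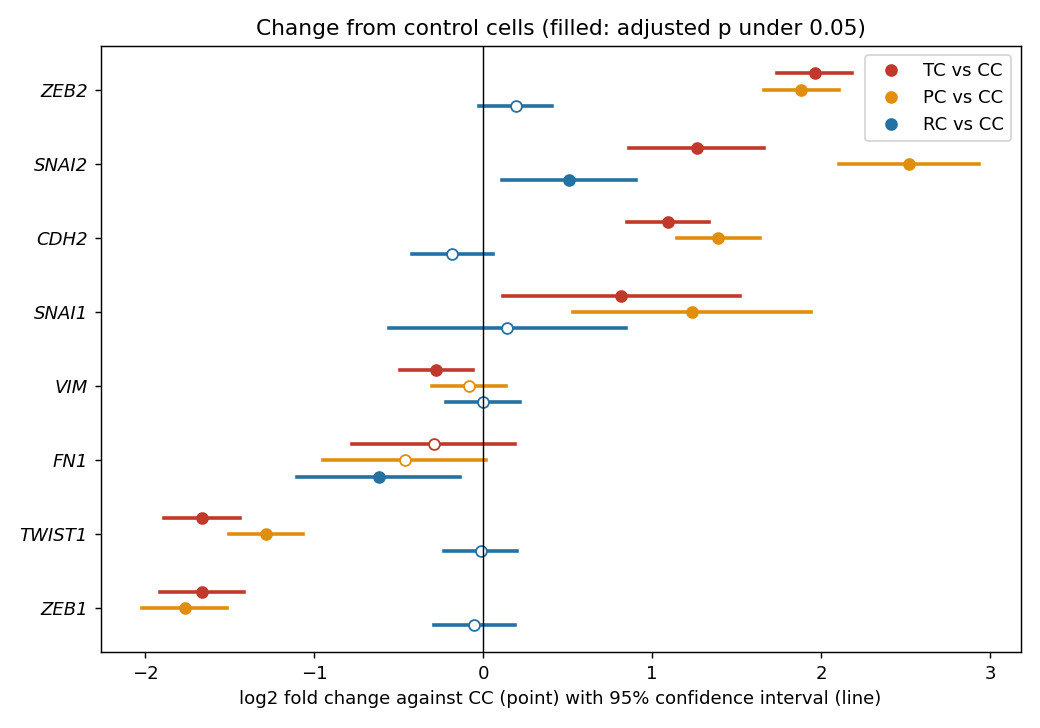
Log2 fold change against CC of the 8 tested genes in TC, PC and RC (points) with 95% confidence intervals (lines), filled where the adjusted p was under 0.05. The points of RC lie near 0 for every gene except SNAI2 (0.51) and FN1 (-0.62), but the RC interval of SNAI1 is wide (-0.56 to 0.85). The intervals of TC and PC lie apart from 0 on both sides for the factors and CDH2.

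After 9 days without drug, 6 of the genes moved back toward CC. RC against PC gave 2 of the 8 genes as higher, ZEB1 and TWIST1, and 4 as lower, ZEB2, SNAI1, SNAI2 and CDH2, where 35.7% of all tested genes were called higher and 34.2% lower. Of these, 2 higher and 3 lower passed the 1.5-fold rule (20.2% and 18.5% of all tested genes). SNAI1 missed it (adjusted p = 0.0594) but passed in 6 of 19 alternatives, which were the replicate block (adjusted p = 0.0386), no filter on low counts (0.0377), the 2 groups alone (0.0023) and the fits without CC replicate 3 (0.0405), TC replicate 1 (0.0323) or TC replicate 3 (0.0211). The libraries of 6 genes did not overlap, as in 78.5% of all tested genes. The median log2 fold change was -0.62 for the 8 genes and 0.01 for all tested genes.

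ZEB1 returned to 38.1, 37.9 and 43.9 CPM in RC, a log2 fold change of 1.71 ± 0.11 from PC (adjusted p = 5.39e-08). TWIST1 returned to 23.6, 22.9 and 23.4 CPM (1.27 ± 0.10, adjusted p = 2.61e-07). For both genes the libraries of RC and CC overlapped, and the differences of RC from CC were -0.05 ± 0.11 for ZEB1 (interval -0.29 to 0.19) and -0.01 ± 0.10 for TWIST1 (interval -0.23 to 0.20).

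ZEB2 fell to 137, 146 and 148 CPM in RC (-1.69 ± 0.10 from PC, adjusted p = 2.03e-08). Each of these lay above the highest CC library, but the difference from CC, 0.19 ± 0.10, was not called (adjusted p = 0.142). SNAI1 fell to 19.0, 16.8 and 15.1 CPM (-1.09 ± 0.32, adjusted p = 0.00898), within the range of CC. CDH2 fell to 148, 140 and 141 CPM (-1.58 ± 0.11, adjusted p = 9.88e-08). It lay just below the CC libraries, a difference of -0.18 ± 0.11 that was not called (adjusted p = 0.216).

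SNAI2 fell to 52.8, 57.4 and 53.3 CPM (-2.01 ± 0.19, adjusted p = 9.74e-07) and remained above all CC libraries. The difference of RC from CC, 0.51 ± 0.18, was called (adjusted p = 0.0443). FN1 had 309, 300 and 306 CPM in RC, below all CC libraries, and was called lower than CC (-0.62 ± 0.22, adjusted p = 0.0457). Both calls are at the limit. That of SNAI2 was lost in 12 of 19 alternatives, which were the fit of the 2 groups alone and every fit that left out 1 library other than CC replicate 2. That of FN1 was lost in 11, which were DESeq2, its size factors in edgeR and every fit that left out 1 library other than CC replicate 2, TC replicate 1 or TC replicate 3. Without CC replicate 3, the lowest for SNAI2, the SNAI2 difference was 0.29 (adjusted p = 0.0566), and the adjusted p over the alternatives ran from 0.00108 to 0.116. For FN1 the adjusted p ran from 0.00659 to 0.136.

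In RC against CC, then, 1 of the 8 genes was called higher and 1 lower, where 18.2% and 19.1% of all tested genes were. By the 1.5-fold rule 0 were called with glmTreat, against 1.35% higher and 2.52% lower of all tested genes. For that rule 0 also had an unadjusted glmTreat p under 0.05, whose share of all tested genes was not computed. DESeq2 with the same threshold called 0 of them, and 411 among all genes. The libraries of 4 genes did not overlap, as in 47.1% of all tested genes. VIM, at 2372, 2475 and 2467 CPM, had a difference of 0.00 ± 0.10 from CC (interval -0.22 to 0.22).

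Per kilobase of exon (the union of all exons in GENCODE v44), the genes differed widely in CC. VIM stood at 471 ± 83.1 CPM per kilobase, followed by FN1 at 27.1 ± 5.01 and CDH2 at 18.9 ± 1.46, with no overlap between their libraries. TWIST1 (11.8 ± 0.306), SNAI2 (11.7 ± 4.03) and SNAI1 (9.00 ± 3.31) did not differ beyond their spread, nor did ZEB2 (4.80 ± 0.453) and ZEB1 (4.79 ± 0.36). CDH1 stood at 0.00658. The order of the factors depends on the length. With the MANE Select transcript, an alternative added after the data were seen, ZEB2 had 13.5 and ZEB1 6.98 CPM per kilobase. TWIST1 had 14.4 and SNAI2 17.6, while SNAI1, whose length is the same by either rule, stayed at 9.00. VIM (1131), FN1 (55.7) and CDH2 (40.4) kept their order. In PC the union-exon levels were 66.9 ± 3.53 CPM per kilobase for SNAI2, 49.6 ± 4.94 for CDH2, 17.7 ± 0.672 for ZEB2 and 1.41 ± 0.192 for ZEB1. These PC levels were not recomputed with MANE Select lengths, so the order of SNAI2 and CDH2 is not settled. Their union lengths are 3281 and 8583 bases, and their MANE Select lengths 2180 and 4016 bases.

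Over the 12 libraries, Pearson's r of log2 CPM was -0.99 between ZEB1 and ZEB2, 0.95 between ZEB1 and TWIST1 and 0.93 between ZEB2 and CDH2. VIM and FN1 had an r of -0.23 with each other. The 12 points form groups and share the treatment, so these values are a description. Of 13187 genes with a mean of at least 1 CPM, 2062 had an r above 0.9 with ZEB1, 2109 with ZEB2, 1899 with TWIST1, 1906 with CDH2 and 570 with SNAI2, but 34 with SNAI1, 6 with VIM and 0 with FN1. The 2 genes most like each member were SYTL5 and SHROOM3 for ZEB1 (0.99 both), LAMTOR1 and H2BC4 for ZEB2, CTDSPL and TEX15 for TWIST1, and GLIPR1 and GINM1 for CDH2. For SNAI2 they were CSRP2 and MOCS2, for SNAI1 PPIF and SLC7A6, for VIM RPL36AL and NDUFAF3, and for FN1 FHL3 and NOMO2, whose r reached only 0.86 and 0.85. SYTL5 went from 279 ± 40.7 CPM in CC to 1.01 ± 0.532 in TC and 185 ± 4.51 in RC, and CSRP2, a LIM-domain protein, from 13.8 ± 4.30 in CC to 53.1 ± 1.52 in TC, 156 ± 3.79 in PC and 24.8 ± 1.95 in RC.

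Antisense transcripts run next to several of the genes, and whether counting used the strand was not stated, so reads of a gene and of its antisense partner cannot be told apart where their exons overlap. ZEB1-AS1 covers 4.58% of the ZEB1 exon bases, ZEB2-AS1 4.97% of those of ZEB2 and VIM-AS1 12.7% of those of VIM. ZEB1-AS1 was counted 130, 190 and 94 times in CC and 53, 66 and 55 times in TC, a log2 fold change of -1.22 (adjusted p = 0.00217), in the direction of ZEB1. ZEB2-AS1 was counted 0, 4 and 6 times in CC and 1, 5 and 0 times in RC, against 33, 19 and 20 times in TC and 28, 31 and 35 times in PC, and was called higher in TC (adjusted p = 0.00435), in the direction of ZEB2. It reached the limit on low counts only through TC and PC, so its rise was partly built into being tested. VIM-AS1 was counted 68, 97 and 50 times in CC and 37, 27 and 68 times in TC (-0.75, adjusted p = 0.0417), a call lost in 12 of 19 alternatives, and 141, 193 and 199 times in RC (1.11 against CC, adjusted p = 0.0102). VIM itself was counted 78010 to 139058 times per library.

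The other genes of the programme are given by lists written by role. Their counts stand beside those of all tested genes, of which 33.2% were called higher and 34.7% lower in TC than in CC. For PC these shares were 33.2% and 35.9%, and for RC 18.2% and 19.1%. Among 10 tested factors also linked to EMT, 4 were called higher and 3 lower in TC than in CC, with a median log2 fold change of 0.04. SOX4, a SOX factor, rose from 51.2 to 308 CPM (2.59, adjusted p = 1.31e-09), and FOXC2, a forkhead factor, had 0, 2 and 0 counts in CC and 19, 18 and 25 in TC. TCF3, an E protein that pairs with TWIST1, fell by 0.93 on the log2 scale (adjusted p = 2.26e-07). In PC 4 were called higher and 4 lower, and in RC 3 higher and 1 lower. SNAI3 and KLF8 were too low to be tested. FOXC2 reached the limit on low counts only through groups where it was higher than in CC, so its rise was partly built into being tested.

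Among the other classical cadherins the direction was mostly that of CDH2. Of 17 listed, 9 could be tested, of which 6 were called higher and 1 lower in TC, with a median log2 fold change of 1.51 against -0.02 over all tested genes. CDH19, a cadherin of Schwann cells and the neural crest, rose from 66.0 to 255 CPM (1.95, adjusted p = 3.19e-09). CDH6 had 0, 3 and 1 counts in the CC libraries and 4, 5 and 4 in those of RC, but 89, 102 and 107 in TC and a mean of 6.09 CPM in PC. It reached the limit on low counts only through TC and PC, so its rise was partly built into being tested. CDH8 fell by 1.54 (adjusted p = 0.00154) from 1.37 CPM. In PC 7 were higher and 1 lower. In RC 4 were called lower and 5 were not called, with a median of -0.99, and CDH19 lay at 33.3 CPM, below CC (-0.99, adjusted p = 2.65e-05). In RC against PC 8 of the 9 were called lower, where 34.2% of all tested genes were. Several are scarce: CDH3, CDH6, CDH7, CDH12 and CDH18 had means under 1 CPM in CC.

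The catenins link cadherins to actin and intermediate filaments. Of 6 tested, 3 were called higher and 2 lower in TC. JUP (plakoglobin) fell from 45.1 to 6.23 CPM (-2.86, adjusted p = 3.67e-07) and CTNNB1 (beta-catenin) from 735 to 351 CPM (-1.07, adjusted p = 7.07e-09). CTNND2 and CTNNA3 rose from 0.0908 and 0.0997 CPM (2.79, adjusted p = 0.000257, and 1.95, adjusted p = 0.00228). They had 12 and 13 counts summed over CC against 84 and 52 over TC. Both reached the limit on low counts only through TC and PC, so their rise was partly built into being tested. JUP was still low in RC, at 8.99 CPM (-2.33 against CC, adjusted p = 3.53e-05), as was CTNNB1, at 573 CPM (-0.36, adjusted p = 0.000407). CTNND1 was listed at 0.502 CPM in CC.

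Epithelial genes other than CDH1 were sparse: 14 of 25 could be tested. In TC 3 were called higher and 7 lower, with a median log2 fold change of -0.75. The desmosomal plakin DSP fell from 18.1 to 2.59 CPM (-2.81, adjusted p = 3.73e-07) and the keratin KRT18 from 82.9 to 13.8 CPM (-2.58, adjusted p = 2.91e-09). The claudin CLDN4 rose from 0.945 to 6.45 CPM (2.77, adjusted p = 4.81e-05) and the plakophilin PKP3 from 0.317 to 1.09 CPM (1.80, adjusted p = 0.00807). In PC 4 were higher and 8 lower, with DSP at 0.956 CPM, and in RC 1 was higher and 6 lower.

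Of 14 tested mesenchymal genes, 4 were called higher and 5 lower in TC (33.2% and 34.7% of all tested genes), 8 higher and 4 lower in PC, and 1 higher and 3 lower in RC. TGFBI, a secreted matrix protein, rose from 9.86 to 493 CPM in TC (5.65, adjusted p = 2.79e-08) and the receptor tyrosine kinase AXL from 6.96 to 37.9 CPM (2.45, adjusted p = 4.26e-07). NT5E, the surface enzyme CD73, fell from 63.3 to 4.68 CPM (-3.76, adjusted p = 2.96e-11) and S100A4 from 6.35 to 2.93 CPM (-1.11, adjusted p = 0.00017). AXL stood at 112 CPM in PC and at 15.6 CPM in RC, still above CC (1.16, adjusted p = 0.000904).

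Of 4 other tested intermediate filament genes, NES (nestin) and GFAP were called higher and SYNM lower in TC. The call of SYNM (-0.31, adjusted p = 0.0226) was lost with the 2 groups alone (adjusted p = 0.0673) and without CC replicate 3 (0.0886), TC replicate 1 (0.09998) or TC replicate 2 (0.0860). NES rose by 0.44 (adjusted p = 0.0213), a call lost without CC replicate 1 (adjusted p = 0.0788), CC replicate 2 (0.0569) or TC replicate 3 (0.25, adjusted p = 0.111), and stood at 238 CPM in PC, below the 579 CPM of CC (-1.28, adjusted p = 1.01e-05). Among 5 tested subunits of fibronectin receptors, 3 were higher and 1 lower in TC: the integrins ITGA5 (1.06, adjusted p = 3.50e-05) and ITGAV (1.01, adjusted p = 5.04e-06) rose, while ITGB3 fell from 958 to 176 CPM (-2.44, adjusted p = 4.16e-10) and returned to 963 CPM in RC.

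Of 11 tested genes of the TGF-beta pathway, a classical inducer of EMT, 5 were called higher and 3 lower both in TC and in PC (33.2% higher in both, and 34.7% and 35.9% lower, of all tested genes), while RC had 1 in each direction. The largest rises in TC were those of SKIL, a feedback repressor (2.45, adjusted p = 4.66e-07), and the receptor TGFBR2 (2.08, adjusted p = 3.49e-08). SMAD7, an inhibitor, fell by 1.00 (adjusted p = 0.0045) and the signal transducer SMAD3 by 0.96 (adjusted p = 4.83e-07). Of 8 corepressors that SNAI and ZEB proteins recruit, 2 were higher and 4 lower in TC (33.2% and 34.7% of all tested genes), 2 higher and 5 lower in PC (33.2% and 35.9%), and 4 higher and 1 lower in RC, where 18.2% and 19.1% of all tested genes were called. AJUBA (1.55, adjusted p = 2.27e-09) and HDAC1 (1.32, adjusted p = 3.56e-09) rose, and KDM1A (-0.65, adjusted p = 2.81e-07) and HDAC2 (-0.59, adjusted p = 1.84e-05) fell.

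**Figure D4:**
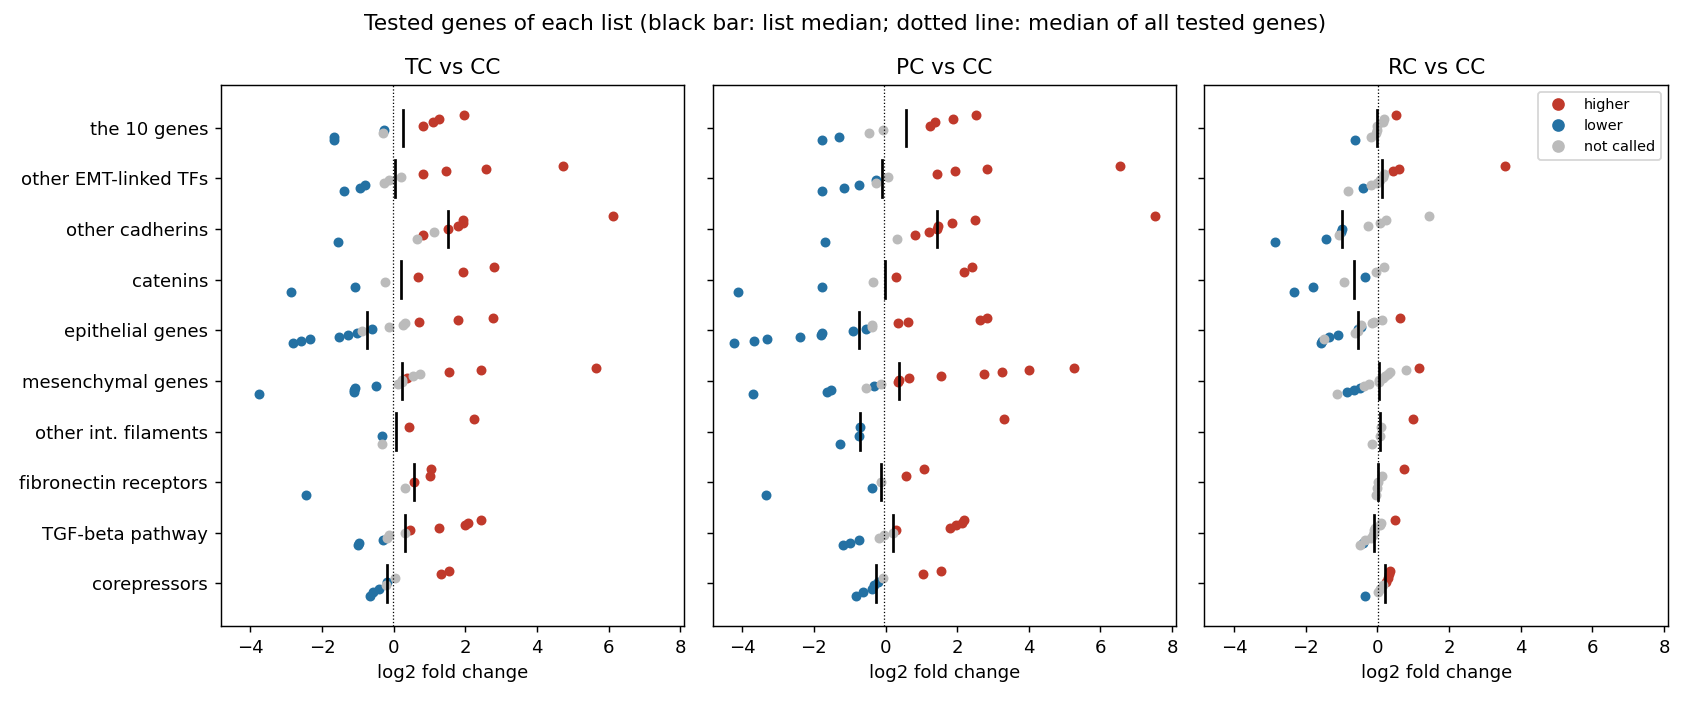
Log2 fold change against CC of the tested genes of each list, in TC, PC and RC, each point a gene, with the list median as a black bar and the median of all tested genes as a dotted line. Most lists hold genes on both sides of 0 in TC and PC, and the other cadherins lie mostly to the right, with a median of 1.51 in TC.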

How the data were processed

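A single deposited table gives unnormalized read counts of every gene in the 12 libraries. Per the submitters' processing notes and the methods of the study, the authors trimmed reads with fastp 0.20.1, aligned them to GRCh38.p13 with HISAT2 2.2.1 and counted them on exons with HTSeq 0.13.5 and the NCBI annotation, without normalization. Whether the counting used the strand, and what was done with multi-mapping reads, is not given in the sources used here.

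Counts were analysed in edgeR 4.0.16 under R 4.3.3. Genes with a mean library-scaled count of at least 10 were kept (15916 of 44659), TMM factors ran from 0.965 to 1.02, and the quasi-likelihood fit used all 12 libraries with a separate mean for each group (8 residual degrees of freedom; the common BCV, or biological coefficient of variation, was 0.182). The 5 comparisons set TC, PC and RC against CC, PC against TC, and RC against PC. In counts simulated for TC against CC over the 15916 genes, 179 of 200 genes changed 4-fold were called (170 beyond 1.5-fold) and 6 of 15716 unchanged genes. For PC against CC simulated without change, 0 of 15916 were called. The simulation left most genes unchanged and moved as many up as down. In the data 33.2% were called higher and 34.7% lower in TC than in CC. It therefore does not check the normalization under so broad a change.

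The 10 genes and the lists were chosen with earlier results of these data known. All 10 are named. From each list, up to 2 genes with the largest rise and 2 with the largest fall in TC against CC were named, and the antisense, microRNA host, marker and drug check genes by their values. A gene that this rule would name is not reported here. Likeness of genes was Pearson's r of log2 CPM over 12 libraries. Gene positions and exon lengths came from GENCODE v44 (hg38) and not from the authors' annotation, and promoters and microRNAs from RefSeq (GRCh38.p14). CDH2-AS1 and FN1-DT were not analysed here. Alternatives were DESeq2 1.42.0, other size factors, other filters on low counts, a replicate block, fits of 2 groups, other prior counts in ratios and leaving out each library.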

Additional observations from a re-analysis of the deposited data

How the results depend on the processing

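Fold changes of the 8 tested genes were recomputed under 19 alternatives, and those of other genes under 17 to 19. Ratios were recomputed with other prior counts and with each library left out. Correlations and list medians were not recomputed. Of 760 recomputed fold changes of the 8 genes, 700 kept their direction and their side of the threshold, 37 lost a call, 12 gained one and 11 changed sign. In TC against CC, PC against CC and RC against PC, the calls of ZEB1, ZEB2, TWIST1, SNAI2 and CDH2 held in all alternatives. From the other lists, only genes among the largest called changes in TC against CC, and called in the main fit, were recomputed. Of their 2141 recomputed fold changes, 2085 kept their call and 56 lost it. Genes chosen in this way could only keep or lose a call, so these numbers do not describe the lists as a whole. Whether the replicate numbers pair the libraries was not settled. Deviations from the group means of same-numbered libraries correlated at -0.034 to 0.134 over genes, with 2 of 18 pairs above 0.1. Differently numbered libraries correlated at -0.101 to 0.037, with 0 of 36 pairs above 0.1. Same-numbered libraries of TC and PC had 0.134, 0.062 and 0.101. Those of CC and TC had 0.033, 0.054 and 0.077, and those of CC and PC had 0.038, 0.038 and 0.0096. A weak pairing of CC, TC and PC is therefore possible. Same-numbered pairs with RC ran from -0.034 to 0.0091. With the replicate block, 7, 6, 2, 2 and 6 of the 8 genes were called in TC, PC and RC against CC, PC against TC and RC against PC, the same numbers as without it, and beyond 1.5-fold it added SNAI1 in RC against PC (6 genes in place of 5). Among other named genes it ended the call of VIM-AS1 in TC (-0.73, adjusted p = 0.0642).

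The 2 calls in RC against CC became 1 with DESeq2, with its size factors in edgeR and with only the 2 groups in the fit, and 0 to 2 when 1 library was left out. The 2 calls in PC against TC became 1 with only the 2 groups and 1 to 4 when 1 library was left out. The 616 genes of all tested that differed beyond 1.5-fold between RC and CC became 341 at the lowest and 901 at the highest when 1 library was left out, and 411 with DESeq2. The cause was not tested. The sign changes were of differences that were not called. In RC against CC, the log2 fold change of TWIST1 (-0.014) turned to 0.015 with library totals only. With 1 library left out, it ran from -0.032 to 0.011, that of SNAI1 from -0.047 to 0.49 and that of VIM from -0.10 to 0.15. VIM in PC against CC ran from -0.18 to 0.060. In PC against TC, ZEB2 ran from -0.16 to 0.050, above 0 without TC replicate 1, and FN1 from -0.41 to 0.13, above 0 without TC replicate 3. At this depth CDH1 and TWIST2 could not be tested.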
